A study of Homo sapiens with 4 samples.

Results

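The genes described here encode the subunits of the proteasome and its closest partners. They were taken by symbol: PSMA, PSMB, PSMC, PSMD or PSME followed by a number, without PSMB8, PSMB9 and symbols that carry a further suffix. This gave 39 of the 18131 genes in the 4 tables, and 7 similar symbols were left out by the same rule. Measured values played no part in the choice, but earlier results of these data were known when it was made. The cells were HCC1143, an established human line of triple-negative breast cancer. They were captured one by one on the 10x Chromium platform, which tags each poly(A) RNA molecule with a unique molecular identifier (UMI). There were 4 groups with 1 library each: cells in 1 nM paclitaxel for 24 h, in DMSO for 24 h, in paclitaxel at that dose for 72 h, and in DMSO for 72 h. Paclitaxel stabilises microtubules, and DMSO is its solvent. All groups shared the same line, the same serum-containing medium and 24 h of attachment before the additions.

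The proteasome degrades proteins tagged with ubiquitin. Its barrel, the 20S core, has outer rings of alpha subunits (PSMA genes), which gate the entrance, and inner rings of beta subunits (PSMB genes), which include the proteases. The 19S regulatory particle sits on the barrel: its base holds a ring of ATPases (PSMC genes) that unfold the substrate, and its lid (most PSMD genes) holds the enzyme that removes ubiquitin. PSME genes encode other caps that open the barrel. Since the subunits are built into one complex, their genes are known to be expressed together, in part under the transcription factor NFE2L1.

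The libraries held 776, 1101, 520 and 783 kept cells in paclitaxel 24 h, DMSO 24 h, paclitaxel 72 h and DMSO 72 h, and between 34850724 and 72024235 UMIs. Median UMIs per cell lay between 54864 and 59670. No barcode was shared except for 4 between paclitaxel 24 h and DMSO 24 h and 3 between DMSO 72 h and DMSO 24 h. The median share of UMIs from ribosomal protein (RPL and RPS) genes was 33.1%, 27.0%, 27.5% and 40.6% in the same order of libraries, so DMSO 72 h stood apart. All 8 epithelial markers were in every table, and ESR1 stayed at or under 0.660 counts per 1000000 UMIs (CPM). PGR was listed in no table, and ERBB2, the HER2 gene, had 20.4 to 23.5 CPM. Of 11 leukocyte, endothelial and fibroblast markers 5 were in any table, with COL1A1 at 10.0 to 13.9 CPM and CD68 at 5.50 to 19.6 CPM. With 1 library a group, treatment or time and library cannot be told apart. No test was possible, and each interval below is a 95% interval for counting error only.

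UMIs were summed over the cells of a library and given as CPM. A UMI counts a molecule once, whatever its length, so levels were not divided by length. All 39 genes were in all 4 tables and reached a mean of 10 CPM in every comparison, the minimum used. Together they made up 4571 CPM (4553 to 4588) in paclitaxel 24 h, against 4577 CPM (4562 to 4593) in DMSO 24 h. At 72 h they made up 4536 CPM (4514 to 4559) in paclitaxel, against 2780 CPM (2766 to 2795) in DMSO. Hence 3 libraries lay close together and DMSO 72 h was far below them. With ribosomal protein and mitochondrial UMIs left out of the totals, the sums were 7565, 7072, 6994 and 5263 per 1000000 in paclitaxel 24 h, DMSO 24 h, paclitaxel 72 h and DMSO 72 h, so the gap was smaller and DMSO 72 h still the lowest.

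Of the 39 genes, 36 had their lowest level in DMSO 72 h, where 50.3% of the 8216 genes that reached the minimum in all libraries together had theirs. The exceptions were PSMA2, PSMB4 and PSME1, which were lowest in DMSO 24 h. With ribosomal protein and mitochondrial genes left out of the totals, 29 of 39 were lowest in DMSO 72 h, against 24.98% of all genes. The highest level fell in paclitaxel 72 h for 21 genes (53.8%), in DMSO 24 h for 16 (41.0%) and in paclitaxel 24 h for 2 (5.13%). Among the 8216 genes these shares were 42.7%, 42.3% and 4.76%, so the members were not far from all genes here.

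**Figure D1:**
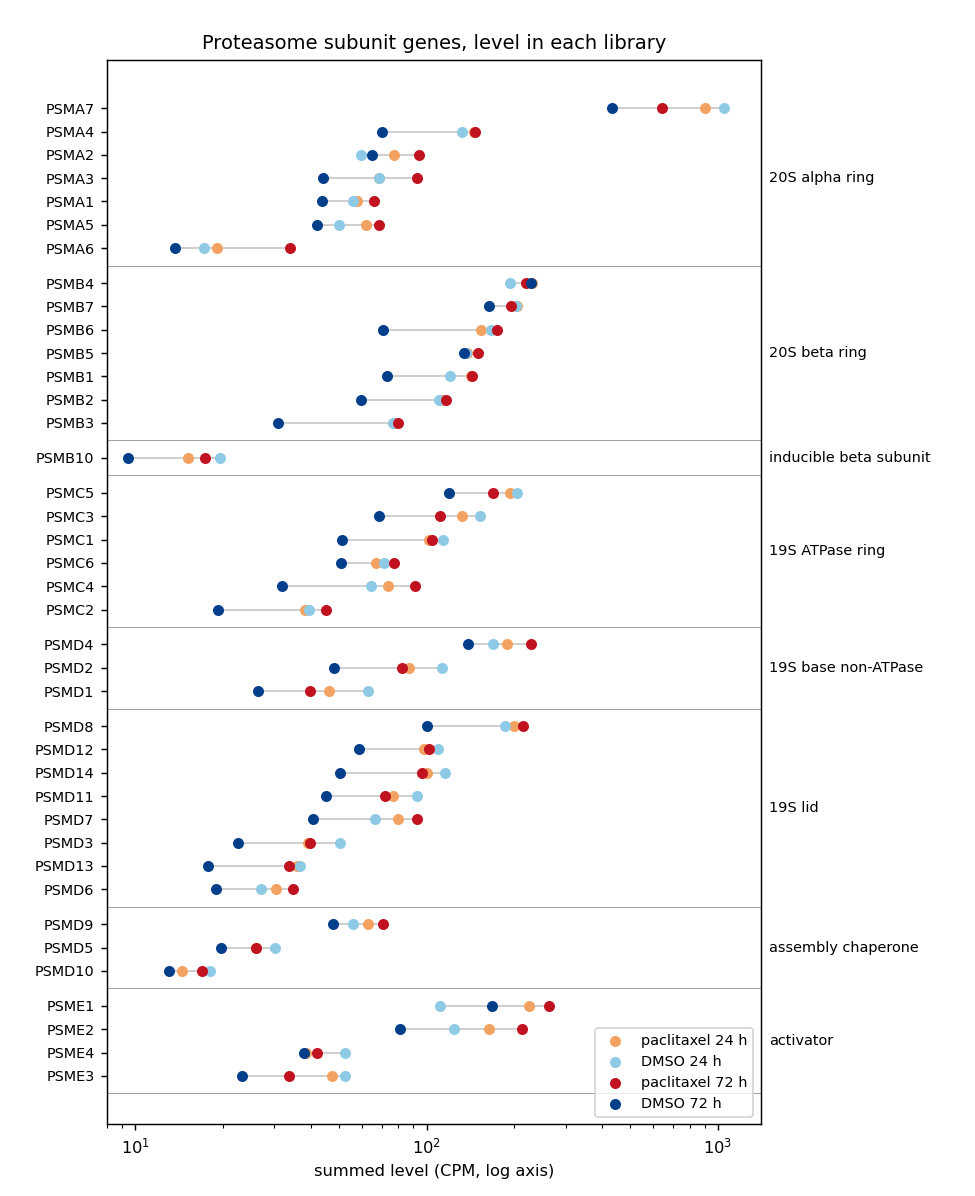
Level of each of the 39 genes in the 4 libraries, in CPM on a log axis, grouped by the role of the subunit. Each point is 1 library, and the grey line of a gene runs from its lowest to its highest library. In 36 of 39 genes the DMSO 72 h point is the lowest, and PSMA7 stands above all others.

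Among the outer ring genes PSMA7 was the most abundant of all 39. It had 902 CPM in paclitaxel 24 h, 1049 CPM in DMSO 24 h, 642 CPM in paclitaxel 72 h and 434 CPM in DMSO 72 h. This 1 gene gave 19.7%, 22.9%, 14.1% and 15.6% of the summed level in those libraries, so sums are also given without it below. PSMA6 was the least abundant outer ring gene, with 18.99, 17.2, 34.0 and 13.7 CPM in the same order. It was high in paclitaxel 72 h alone. PSMA4, whose product closes the gate at the entrance, had 145, 133, 147 and 70.1 CPM in that order. PSMA2 had 77.4, 59.7, 94.4 and 64.8 CPM and was the one outer ring gene that was not lowest in DMSO 72 h.

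The inner ring genes split into a level group and a low one. PSMB5, which encodes the chymotrypsin-like protease, had 138 CPM in paclitaxel 24 h, 137 CPM in DMSO 24 h, 150 CPM in paclitaxel 72 h and 135 CPM in DMSO 72 h. PSMB7, for the trypsin-like protease, had 204, 202, 195 and 164 CPM in that order. PSMB6, for the caspase-like protease, had 154, 166, 174 and 71.0 CPM. The 3 protease genes therefore differed in how low DMSO 72 h lay, slightly for PSMB5 and most for PSMB6. PSMB4, a structural subunit, had 229, 193, 219 and 228 CPM and showed no dip at 72 h in DMSO. PSMB3, another structural subunit, had 77.9, 76.4, 79.5 and 30.8 CPM. PSMB10 encodes a subunit that interferon induces in place of that of PSMB7, and it was among the rarest at 15.1, 19.6, 17.4 and 9.45 CPM.

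The 19S genes shared a low level in DMSO 72 h. In the ATPase ring PSMC4 had 73.9 CPM in paclitaxel 24 h, 64.2 CPM in DMSO 24 h, 91.1 CPM in paclitaxel 72 h and 31.9 CPM in DMSO 72 h. Among the base scaffold genes, PSMD2 had 86.7, 113, 82.0 and 47.9 CPM and PSMD1 had 46.2, 62.7, 39.8 and 26.4 CPM in that order. PSMD4, which encodes a receptor for ubiquitin chains, had 188, 170, 228 and 138 CPM. In the lid PSMD14, the enzyme that removes ubiquitin from substrates, had 100.5, 116, 96.6 and 50.3 CPM. All 17 genes of the regulatory particle were lowest in DMSO 72 h, and 14 of them had at least 1.5-fold less there than in DMSO 24 h, beside 25.1% of all genes in that pair.

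The caps behaved differently from each other. PSME1 and PSME2 encode the subunits of the interferon-inducible cap PA28. PSME1 had 224 CPM in paclitaxel 24 h, 111 CPM in DMSO 24 h, 263 CPM in paclitaxel 72 h and 168 CPM in DMSO 72 h. PSME2 had 164, 124, 212 and 80.8 CPM in that order. Both were higher in each paclitaxel library than in either DMSO library. PSME3, whose product caps the barrel in the nucleus, had 47.3, 52.3, 33.8 and 23.2 CPM, lower in both 72 h libraries than in both 24 h libraries. PSME4, another nuclear cap, had 38.4, 52.4, 42.0 and 37.8 CPM and was high in DMSO 24 h alone. The assembly chaperones of the 19S base (PSMD5, PSMD9 and PSMD10) summed to 103, 104, 113 and 80.3 CPM.

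The stretches around 2 short motifs are shown because the PA28 genes and PSMB10 are known interferon targets and NFE2L1 is known to bind antioxidant response elements. RefSeq promoters (GRCh38.p14, 250 bases before to 50 after each start) were matched for 34 of the 39 genes. PSMA7, PSMB1, PSMB6, PSMB7 and PSMD4 were not matched. The core of the interferon-stimulated response element was searched as GAAA, any 2 bases and GAAA on both strands. It was found before any start of 4 of the 34 genes (11.8%). This compares with 3.71% of all 27305 genes that had a promoter and 3.04% of the 6382 of them expressed here. A gene with several starts counted once, and more starts give more places for a match. The matches are in capitals, 5′ to 3′ on the gene's strand.
PSME2, chr14:24146619-24146648, minus strand: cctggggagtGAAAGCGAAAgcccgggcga
PSMB10, chr16:67936852-67936881, minus strand: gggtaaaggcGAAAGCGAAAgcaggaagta
PSMB4, chr1:151399495-151399524, plus strand: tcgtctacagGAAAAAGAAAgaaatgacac
PSMA4, chr15:78540155-78540184, plus strand: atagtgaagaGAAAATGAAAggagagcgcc
The stretches of PSME2 and PSMB10 hold the same 10 matched bases and overlap annotated exons in GENCODE 29. The genes with this match did not move alike: at 72 h PSME2 had one of the highest ratios of paclitaxel over DMSO and PSMB4 the lowest.

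The core of the antioxidant response element was searched as TGACNNNGC on both strands. It was found before any start of 10 of the 34 genes (29.4%), against 13.2% of all genes with a promoter and 16.3% of those expressed. Matches are again in capitals. The 4 shown are those of PSMB3 and PSME1, which led comparisons below, and of a pair of lid genes, PSMD12 and PSMD3.
PSMB3, chr17:38752627-38752655, plus strand: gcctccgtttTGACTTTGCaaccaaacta
PSMD12, chr17:67366724-67366752, minus strand: agacaaaaccTGACGCTGCaggctggagt
PSMD3, chr17:39980760-39980788, plus strand: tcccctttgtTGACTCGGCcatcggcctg
PSME1, chr14:24136098-24136126, plus strand: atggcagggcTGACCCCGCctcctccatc
A match is a run of letters and not a shown binding site. Of the 10 genes with this match PSME1 was the one that was not lowest in DMSO 72 h. Among all 39 genes 36 were lowest there, so the match did not set these genes apart.

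At 24 h the summed level hardly differed between paclitaxel and DMSO, while single members moved both ways. Only PSME1 was at least 1.5-fold higher in paclitaxel, with a log2 ratio of 1.01 (0.97 to 1.05), and no gene was at least 1.5-fold lower. These 2 counts stand beside 4% higher and 3.62% lower among the 8096 genes measured in this pair. PSME2 followed at 0.40 (0.36 to 0.44), then PSMA2 at 0.37 and PSMA5, another outer ring gene, at 0.31. The lowest were PSME4 at -0.45 (-0.52 to -0.37), PSMD1 at -0.44, PSMD2 at -0.38 and PSMB10 at -0.37. The median over the 39 genes was 0.00 on the log2 scale, against -0.14 for all measured genes, and the ratio of the sums was -0.00 (-0.01 to 0.01). By class, 13 of 14 core genes but 9 of 17 regulatory particle genes lay above the median of all genes. The direction of 16 of the 39 ratios in this pair turned under at least 1 other way of scaling or of choosing cells.

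At 72 h the genes were higher in paclitaxel than in DMSO nearly throughout. At least 1.5-fold higher were 28 of the 39 genes and none was as much lower, beside 25.2% higher and 2.13% lower among all 8306 measured genes. The median log2 ratio of the 39 was 0.78, against 0.28 for all genes, a gap of 0.50, and 35 of 39 lay above the median of all genes. The ratio of the summed levels was 0.71 on the log2 scale (0.70 to 0.72). With totals outside ribosomal protein and mitochondrial genes the count was 16 of 39, beside 10.7% of all genes, and with trimmed-mean (TMM) scaling 17 of 39, beside 10.9%. The ratio of the sums was then 0.41 and 0.42. The number of genes past 1.5-fold thus depended on the scaling, while the direction of the sum did not.

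PSMC4 had the highest ratio at 72 h, a log2 of 1.51 (1.42 to 1.60), followed by PSME2 at 1.39 (1.33 to 1.45), PSMB3 at 1.37 and PSMA6 at 1.31. PSMB6 came next among the genes named for their role, at 1.30 (1.24 to 1.36). The lowest was PSMB4 at -0.05 (-0.10 to -0.01), then PSME4 at 0.15, PSMB5 at 0.16 and PSMB7 at 0.25. The ratios of PSMB5, PSMB7 and PSME4 changed sign under at least 1 other setting. PSME1 was at 0.64, PSME3 at 0.54 and PSMB10 at 0.88. The chaperones PSMD9, PSMD5 and PSMD10 were at 0.57, 0.40 and 0.38. Just past the 1.5-fold limit were PSMA1 and PSMD1 at 0.59 each, and just short of it PSMD9 and PSMA7 at 0.57 and 0.56.

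**Figure D2:**
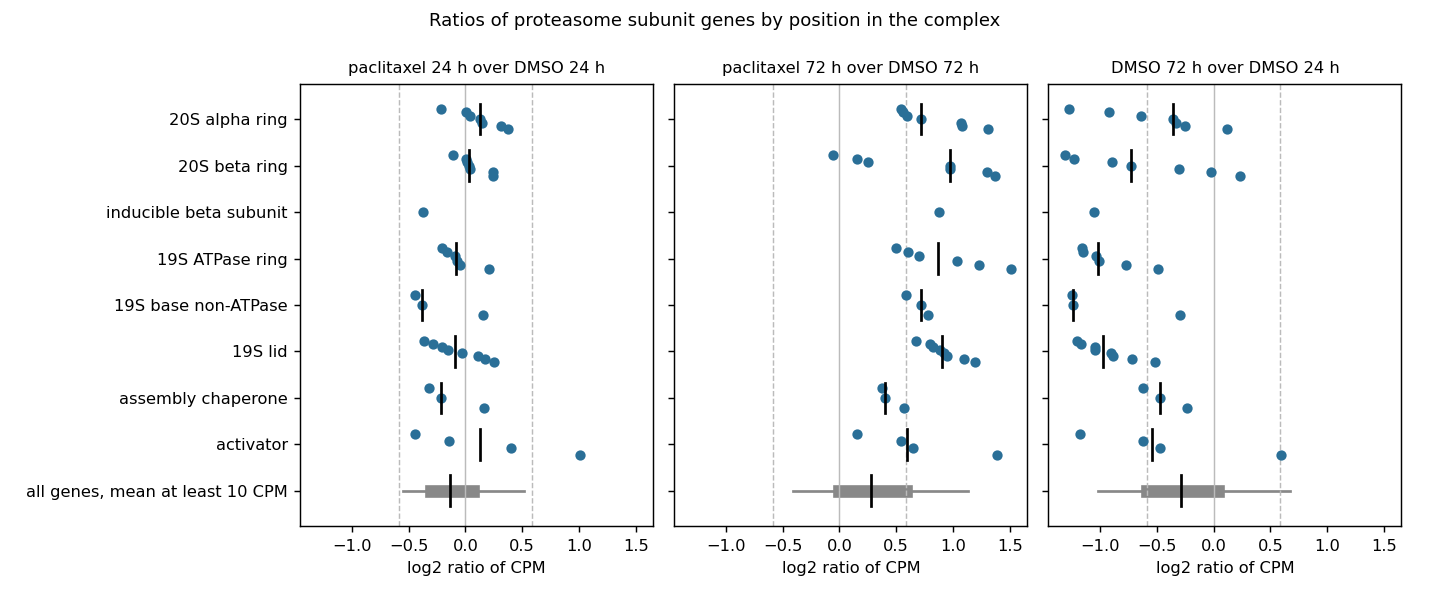
Log2 ratio of CPM for each of the 39 genes, by the role of the subunit. The pairs are paclitaxel over DMSO at 24 h, paclitaxel over DMSO at 72 h and DMSO 72 h over DMSO 24 h. The vertical lines mark no difference and 1.5-fold either way. Black bars mark the median of a class, and the bottom row gives the median and spread of all genes measured in that pair. At 72 h all ratios of paclitaxel over DMSO but that of PSMB4 lie above 0.

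By role, all 8 lid genes, all 3 other base genes and 5 of the 6 ATPase genes were at least 1.5-fold higher in paclitaxel at 72 h. Among all measured genes the share was 25.2%. In the core it was 5 of the 7 outer ring genes and 4 of the 7 inner ring genes. PSMB10 passed, as did 2 of the 4 cap genes, both of PA28. None of the 3 chaperones did. These counts depended on the scaling. With totals outside ribosomal protein and mitochondrial genes, the other base genes PSMD1, PSMD2 and PSMD4 were at 0.29, 0.48 and 0.43 and fell short. PSMB10 was just short of the limit at 0.58. Lid, ATPase, outer ring and inner ring genes then fell on both sides of it.

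In DMSO the later library was the lower one. At least 1.5-fold lower at 72 h than at 24 h were 25 of the 39 genes, beside 25.1% of all 8077 measured genes. PSME1 alone was at least 1.5-fold higher, beside 6.43% of all genes. The median was -0.77 on the log2 scale, against -0.29 for all genes, a gap of -0.48. The ratio of the sums was -0.72 (-0.73 to -0.71), and -0.59 without PSMA7. With totals outside ribosomal protein and mitochondrial genes it was -0.43, and 19 of the 39 genes were at least 1.5-fold lower, beside 9.64% of all genes. Leading down were PSMB3 at -1.31, PSMA7 at -1.27, PSMD1 at -1.25 and PSMD2 at -1.24. Leading up were PSME1 at 0.59, PSMB4 at 0.23, PSMA2 at 0.12 and PSMB5 at -0.02. PSMB5 was among 4 genes of this pair whose ratio changed sign under another setting. By role, 7 of 8 lid genes, 5 of 6 ATPase genes, 2 of 3 other base genes, 3 of 7 outer ring genes and 4 of 7 inner ring genes passed the limit downward. This pair shares the DMSO 72 h library with the 72 h drug pair, so the counts of the pair are not separate evidence.

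Between the paclitaxel libraries the genes stayed close. At 72 h relative to 24 h PSMA6 alone was at least 1.5-fold higher, with a log2 ratio of 0.84 (0.72 to 0.96), beside 12.2% of all 8335 measured genes. None was as much lower, beside 2.65%. PSMA3 followed at 0.44, PSME2 at 0.37 and PSMC4 at 0.30. At the other end PSMA7 and PSME3 were both at -0.49, PSMC3, an ATPase, at -0.24 and PSMD1 at -0.21. The median was 0.10, against 0.13 for all genes, and the ratio of the sums was -0.01, but 0.09 without PSMA7. The direction of 29 of the 39 ratios in this pair turned under at least 1 other setting.

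The balance between barrel and cap was read from the 14 core genes of the alpha and beta rings and the 17 genes of the regulatory particle. Scaling of the libraries cancels in this ratio. The core summed to 2390.5 CPM in paclitaxel 24 h, 2439 CPM in DMSO 24 h, 2222 CPM in paclitaxel 72 h and 1473 CPM in DMSO 72 h. The regulatory particle summed to 1588, 1674, 1633 and 908 CPM in that order. The ratio of core to regulatory particle was 1.51, 1.46, 1.36 and 1.62, so it was lowest in paclitaxel 72 h and highest in DMSO 72 h.

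As a difference of log2 ratios, core minus regulatory particle, paclitaxel against DMSO gave 0.05 (0.03 to 0.06) at 24 h and -0.25 (-0.28 to -0.23) at 72 h. DMSO 72 h against DMSO 24 h gave 0.15 (0.13 to 0.17), and paclitaxel 72 h against paclitaxel 24 h gave -0.15 (-0.17 to -0.13). Without PSMA7 the 72 h drug difference was -0.24, but that between the DMSO libraries was 0.46, that at 24 h was 0.18 and that between the paclitaxel libraries turned to 0.05. The ratio of core to regulatory particle without PSMA7 was 0.937 in paclitaxel 24 h, 0.830 in DMSO 24 h, 0.967 in paclitaxel 72 h and 1.14 in DMSO 72 h. Hence the size of the values at 24 h and across time depended on this gene, as did the direction between the paclitaxel libraries. The drug value at 72 h hardly depended on PSMA7, but it is a value of sums, which follow abundant genes. By gene, the median log2 ratio of that pair was 0.84 in the core and 0.83 in the regulatory particle. The lowest core ratios were those of abundant inner ring genes, PSMB4 at -0.05, PSMB5 at 0.16 and PSMB7 at 0.25. The balance without these inner ring genes was not computed.

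**Figure D3:**
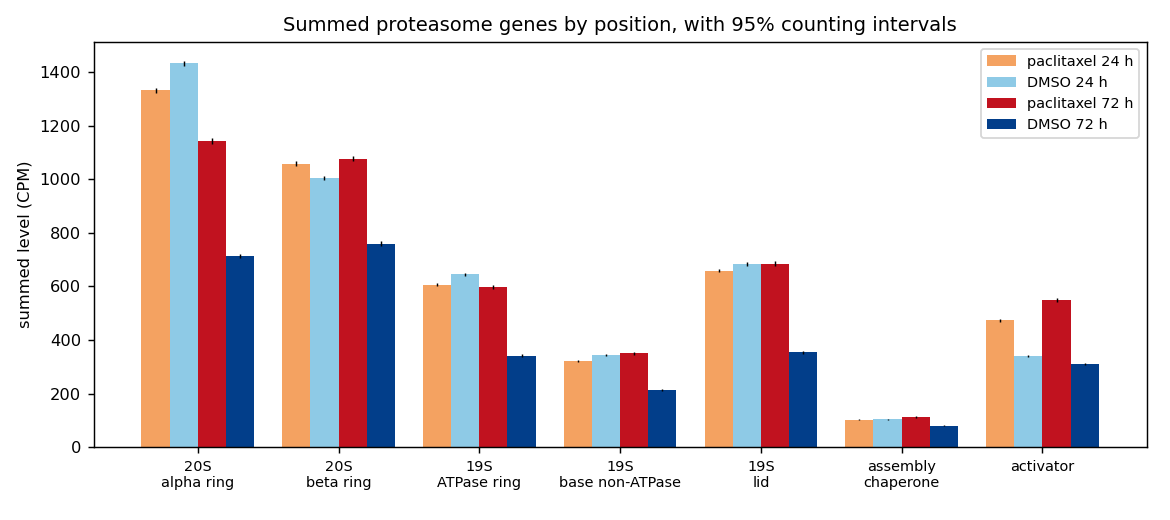
Summed level of classes of subunit genes in the 4 libraries, in CPM. Added over its classes, the core has 1473 to 2439 CPM and the regulatory particle 908 to 1674 CPM. Both totals are lowest in DMSO 72 h.

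Cell by cell, counts were drawn down to 20000 UMIs a cell, which left 750, 1080, 481 and 766 cells in paclitaxel 24 h, DMSO 24 h, paclitaxel 72 h and DMSO 72 h. The median number of UMIs from the 39 genes was 74, 83, 78 and 52. Of paclitaxel 72 h cells 91.5% (exact binomial interval 88.6 to 93.8) lay above the median of DMSO 72 h cells. Of paclitaxel 24 h cells 38.7% (35.2 to 42.3) lay above the median of DMSO 24 h cells. The 72 h difference was therefore seen in most cells of the library, and at 24 h the typical cell was slightly lower in paclitaxel although the sums were alike.

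The spread among cells differed more than the median. Quartiles ran at 58 and 103 UMIs in paclitaxel 24 h, 71 and 99 in DMSO 24 h, 64 and 106 in paclitaxel 72 h, and 45 and 63 in DMSO 72 h. The variance over the mean was 18.0 and 8.51 at 24 h and 18.8 and 5.38 at 72 h, paclitaxel before DMSO each time. Cells above 147 UMIs, the 95th percentile of DMSO 24 h cells, made up 7.87% (6.04 to 10.0) of paclitaxel 24 h. In DMSO 24 h they made up 4.81%, a share fixed by the choice of this limit. At 72 h they made up 9.77% (7.27 to 12.8) of paclitaxel and 0.261% (0.0316 to 0.940) of DMSO. Both paclitaxel libraries thus had a longer upper tail. In the cells of this tail the median ribosomal protein share was 26.1% in paclitaxel 24 h and 20.95% in paclitaxel 72 h, against 33.8% and 28.7% in the other cells of the same libraries. Before thinning, the tail cells had a median of 94650 UMIs in paclitaxel 24 h and 50784 in paclitaxel 72 h, against 59574 and 62308 in the other cells. In DMSO 24 h the tail cells had a median of 88642 UMIs, against 59370. Their median ribosomal protein share was 25.7%, against 27.1%. A higher UMI count in the tail was thus seen in both 24 h libraries. DMSO 72 h had only 2 cells in the tail. Doublets were not called, and their part was not tested.

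**Figure D4:**
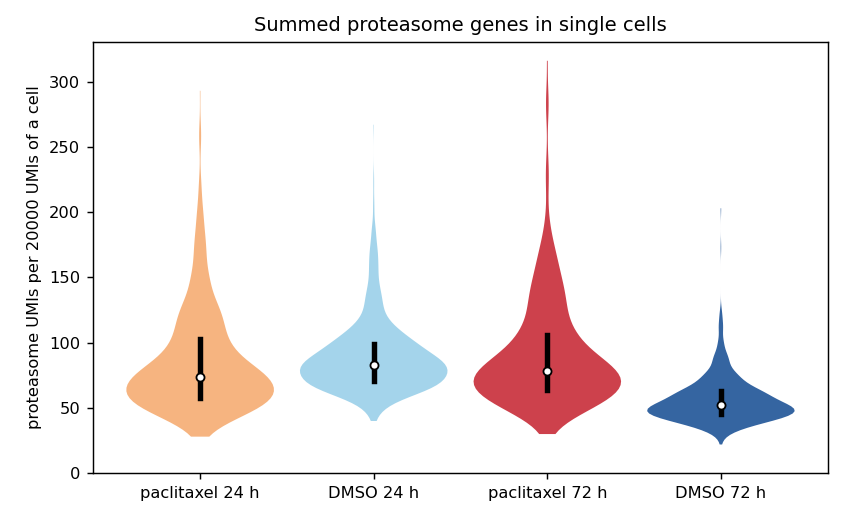
UMIs from the 39 genes per cell, after drawing each cell down to 20000 UMIs, by library. Medians are 74 and 83 for paclitaxel and DMSO at 24 h and 78 and 52 at 72 h, and the upper tail is longer in both paclitaxel libraries.

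Within cells the core and the regulatory particle went together. Across cells Pearson's r between their thinned UMIs was 0.83 in paclitaxel 24 h, 0.64 in DMSO 24 h, 0.74 in paclitaxel 72 h and 0.60 in DMSO 72 h, where cells share a library and a fixed depth. The member UMIs went against the ribosomal protein share, with r of -0.60, -0.32, -0.40 and -0.53 in that order. Since both are parts of 1 total, some of this is built in. When the cells of each library were split into 4 equal bins by ribosomal protein share, in the bin with the lowest share, the 39 genes had 6453 CPM in paclitaxel 24 h, 4927 CPM in DMSO 24 h, 5665.5 CPM in paclitaxel 72 h and 3515 CPM in DMSO 72 h. In the bin with the highest share they had 2884.5, 3863, 3564 and 2345 CPM in that order. The bins were set within each library and differ in that share: the median was 24.3%, 22.3%, 17.8% and 32.6% in the lowest bins and 42.8%, 34.2%, 37.0% and 46.5% in the highest, in the same order. In the bins with a median share from 32.6% to 37.0% the levels were close. They were 3574 CPM in the third bin of paclitaxel 24 h (35.8%) and 3863 CPM in the highest bin of DMSO 24 h. The highest bin of paclitaxel 72 h had 3564 CPM and the lowest bin of DMSO 72 h 3515 CPM. Other bins with similar shares lay apart. Against 6453 CPM in the lowest bin of paclitaxel 24 h, the second bin of DMSO 24 h (25.5%) had 4866 CPM. The second bin of paclitaxel 72 h (24.8%) had 4944 CPM. The second bin of DMSO 72 h (38.8%) had 2847 CPM, below the highest bin of paclitaxel 72 h (37.0%). The part of the ribosomal protein share in the differences between libraries was not tested.

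Cell cycle phase, called from S and G2/M gene scores, also differed between libraries. Of the thinned cells 34.1% were called G1 in paclitaxel 24 h, 13.0% in DMSO 24 h, 65.9% in paclitaxel 72 h and 49.6% in DMSO 72 h. In cells called G1 the 39 genes had 4095 and 4126 CPM at 24 h, and 4361 and 2824 CPM at 72 h, with paclitaxel before DMSO. In cells called G2/M they had 5239 and 4711 CPM at 24 h and 5167 and 2930 CPM at 72 h in the same order. The 72 h difference was thus present in each of these phases. In CPM, G2/M cells had more than G1 cells in each library, by the widest margin in paclitaxel 24 h. With totals outside ribosomal protein and mitochondrial genes the order turned in DMSO 72 h, with 5321 in G2/M and 5450 in G1. It held in DMSO 24 h, at 7165 in G2/M and 7016 in G1. It also held in paclitaxel 24 h (8276 and 7136) and in paclitaxel 72 h (7821 and 6776). Free RNA can enter such calls, and its part was not tested.

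**Figure D5:**
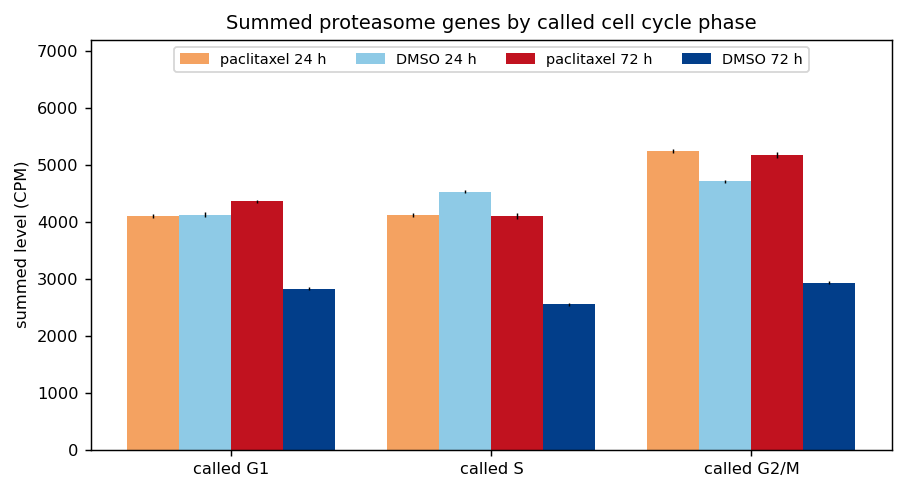
Summed level of the 39 genes in cells called G1, S and G2/M in each library, in CPM with 95% counting intervals. In every phase paclitaxel 72 h lies above DMSO 72 h, and at 24 h paclitaxel lies above DMSO in G2/M only.

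Other genes of the pathway were followed as lists, which were chosen with earlier results known. Their counts at 72 h stand beside the 25.2% of all genes that were higher in this pair. Among 9 assembly factors and further subunits, 5 were at least 1.5-fold higher in paclitaxel at 72 h. POMP, which matures the core, had 310 CPM in paclitaxel 72 h and 155 CPM in DMSO 72 h. ADRM1, a ubiquitin receptor of the 19S base, had 149 CPM in paclitaxel 72 h and 63.4 CPM in DMSO 72 h. SHFM1, a small lid subunit, had 300 and 315 CPM in those libraries and did not share the difference. None of the 9 measured genes for proteasome-bound enzymes and shuttles passed the limit at 72 h.

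UBB, which encodes a chain of ubiquitin repeats, had 619, 479, 786 and 347 CPM in paclitaxel 24 h, DMSO 24 h, paclitaxel 72 h and DMSO 72 h. It was highest in paclitaxel 72 h. Of 6 genes around p97, the ATPase that extracts ubiquitinated proteins, 2 passed, while VCP, which encodes p97 itself, had 66.8 CPM in paclitaxel 72 h and 54.4 CPM in DMSO 72 h. Of 10 transcription factors and their processing enzymes 3 passed. The shares of these last 2 lists are near that of all genes. NFE2L1 had 246 CPM in paclitaxel 72 h and 180 CPM in DMSO 72 h, and MAFF, a small partner of such factors, had 59.1 and 20.5 CPM.

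The chaperonin CCT, another large ring complex that folds actin and tubulin, was set beside the proteasome. Its 8 genes summed to 1782 CPM in paclitaxel 24 h, 1837 CPM in DMSO 24 h, 1918 CPM in paclitaxel 72 h and 1151 CPM in DMSO 72 h. At 72 h, 6 of the 8 were at least 1.5-fold higher in paclitaxel, so the low level in DMSO 72 h was not particular to the proteasome. Of 84 measured ribosomal protein genes, 2 were that much higher and 23 lower in the same pair.

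All 39 genes had a locus in GENCODE 29 (GRCh38), on 15 chromosomes, with 7 each on chromosomes 14 and 17. PSME1 and PSME2 lie close together on chromosome 14. For 18 of them a gene on the opposite strand overlaps, for 11 a gene on the same strand does, and 12 have named pseudogenes, with 13 for PSMC1, 4 for PSMA6 and 3 for PSMA2. No source used here says whether counting used strand, so the counts of these genes are uncertain to that degree.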

How the data were processed

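The authors deposited 1 table of raw UMI counts per library, with genes in rows and cells in columns. Cell Ranger 2.0 and GRCh38 are named per the submitters' processing notes. No source used here says how cells were chosen. Cells with at least 500 genes and under 20% mitochondrial UMIs were kept, 3180 of 3194, and no doublet caller was run. Deposited counts were summed per library and scaled to 1000000 UMIs (CPM). A gene missing from a table was set to 7, 11, 5 or 7 UMIs (paclitaxel 24 h, DMSO 24 h, paclitaxel 72 h, DMSO 72 h), since the tables list genes seen in at least 1% of their cells, and counts under 3 were set to 3. No listed subunit gene needed this. Ratios were taken where the mean of the pair reached 10 CPM, with exact Poisson-ratio 95% intervals. A gene counted as higher or lower past 1.5-fold, with an interval that excluded 1. Intervals cover counting error only. All members could be named. In each pair the 4 highest and 4 lowest ratios were, with the protease, PSMB10, PSME and chaperone genes. The members and lists were chosen with earlier results of these data known. Alternatives were TMM factors (edgeR 4.0.16), totals without RPL, RPS and MT- genes, per-cell means, stricter cell filters (1000 genes, 15% mitochondrial), no cells above 100000 UMIs, cells called G1 (scanpy 1.11.5), a minimum of 50 CPM and, chosen after seeing the data, no PSMA7. The calculations were tested on simulated data. RefSeq promoters and GENCODE 29 loci, both on GRCh38, were joined by symbol.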

Additional observations from a re-analysis of the deposited data

Results flagged for a closer look

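For 11 genes the log2 ratio of paclitaxel over DMSO had opposite signs at 72 h and 24 h under all 3 scalings tried (total UMIs, TMM factors, and totals without ribosomal protein and mitochondrial genes). With 1 library per group the difference between the times was not tested. The gap, 72 h minus 24 h, was 1.25 for PSMB10, 1.20 for PSMD3, 1.19 for PSMC1, 1.16 for PSMD2, 1.15 for PSMD14 and 1.03 for PSMD1. It was 0.95 for both PSMD11 and PSMD12, 0.90 for PSMC3 and 0.78 for PSMA7. These 10 were lower in paclitaxel at 24 h and higher at 72 h. PSMB4 went the other way, with a gap of -0.30, but its 24 h ratio was -0.03 in cells called G1 and 0.24 in all cells. As many as 18 of the 39 genes had opposite signs with total UMIs alone, with counting intervals that excluded no difference. The share of all genes with opposite signs was not counted, so neither count can be set beside it. With total UMIs the median over all genes was itself -0.14 at 24 h and 0.28 at 72 h.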

How the results depend on the processing

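No paired analysis was possible because each group is 1 library with no replicate numbers. Leaving out PSMA7 was chosen after seeing the data. For the summed level (log2), paclitaxel over DMSO at 24 h was -0.002 as reported and turned to 0.0927 with TMM factors, 0.0974 with totals without ribosomal protein and mitochondrial genes, and 0.0564 without PSMA7. It was -0.0509 with per-cell means, -0.105 without cells above 100000 UMIs and -0.0110 in cells called G1. At 72 h it was 0.71 as reported and, in that order of settings, 0.416, 0.410, 0.731, 0.721, 0.686 and 0.627. DMSO 72 h over DMSO 24 h was -0.72 as reported, then -0.577, -0.426, -0.589, -0.661, -0.650 and -0.547. Paclitaxel 72 h over paclitaxel 24 h was -0.01 as reported, then -0.254 and -0.113, and turned to 0.0863, 0.111, 0.141 and 0.0909. Core minus regulatory particle moved at 24 h to 0.176 without PSMA7, 0.0777 with per-cell means, 0.0715 without cells above 100000 UMIs and 0.0158 in G1, and at 72 h to -0.298 in G1. Between the DMSO libraries it moved to 0.462 without PSMA7 and 0.116 in G1. Between the paclitaxel libraries it turned to 0.0454 without PSMA7 and was -0.198 in G1. At 72 h 17 and 16 members, in place of 28, were higher with TMM factors and with totals without ribosomal protein and mitochondrial genes. Between the paclitaxel libraries 2 were lower under each of these, 2 were higher in G1 and 0 at a minimum of 50 CPM. At 24 h 1 was lower with per-cell means and 1 without cells above 100000 UMIs. The causes were not tested. A count was taken as moved when it changed by more than 1.5 times, and a log2 value when it left its counting interval. By these limits 71 values stayed, 33 moved and 8 turned in sign, and the stricter cell filter moved or turned none. Depth sets only the counting error, and the spread between cultures was not measured.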
